A study of Mus musculus with 10 samples.

Results

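The 57 genes described here are named for their induction by interferon or belong to antiviral families that interferon induces, out of 12637 genes in the table of expression values. The rule that chose them uses names and no measured value, though it was set with earlier results of these data known. It takes symbols that start with Ifit, Ifi and a digit, Oas, Isg, Gbp, Mx1, Mx2, Irgm, Samd9 or Parp10 to Parp14, and 18 further antiviral genes by their full symbol. In the GENCODE M21 annotation 81 protein-coding mouse genes fit the same rule. Every gene in the table reached a mean of 1 RPKM (read counts scaled by transcript length and library depth) in at least 1 group. A filter at that level is inferred from these values and is not described in the sources used here. Ifitm3 was under 1 RPKM on average in every WT group, so by this filter it is listed through the mutant alone. Ifitm3 and Ifitm10 were taken in by the opening letters Ifit although they are not IFIT proteins, and Isg20l2, a nuclease of ribosome biogenesis, shares only its name with the interferon-induced Isg20.

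RNA was sequenced from naive splenic CD8+ T cells (CD62Lhi CD44 lo/-) of female C57Bl/6 mice, 6 weeks old, which had been enriched by removing other cells and then sorted. The mutant cells were Ikaros-Zn4-/-, a name that denotes Ikaros, the product of Ikzf1, without its zinc finger 4, and the control cells were wild type (WT). Each genotype was sampled unstimulated (0 min, 2 libraries) and after 30 min (2 libraries) and 120 min (1 library) with plate-bound antibodies against CD3 and CD28, so that all stimulated cells of both genotypes had received both antibodies. Nothing in the labels limits the mutation to T cells or to the time of the assay. The labels do not say that replicates came from separate mice, and p-values therefore measure the spread between these 10 libraries only, which may be technical.

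Interferons are cytokines that signal through paired receptors and the JAK kinases. The signal of type I interferon ends at the interferon-stimulated response element, a DNA element built of GAAA repeats, and that of interferon gamma at the gamma-activated site. The induced genes encode proteins that sense foreign nucleic acids, block the translation of viral RNA, trap virions or break open the vacuoles of intracellular pathogens. T cells that have not met an infection express many of them at a resting level, which is known to depend on low, constant interferon signalling. Ikaros is a lymphocyte transcription factor that binds DNA with zinc fingers.

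The paired repeat of the response element was found in the promoter windows of many members but not all, and the sequences of 5 members that fell by 120 min and hold 2 copies before the start are printed as examples of it. RefSeq promoter windows (GRCm38.p6, 250 bases before to 50 after the start of transcription) matched 38 of the 57 members by symbol, in 47 windows, and a match was counted on either strand. The paired repeat (GAAA, then NN, then GAAA) was found in 24 of the 47 member windows (51.1%), against 3.44% of all 32851 windows, and in 23 of the 38 members (60.5%), against 3.99% of 27025 genes. Isg15 held 3 copies, the most of any member. The letters TTCNNNGAA, the core of the gamma-activated site, were in 25.5% of member windows and 8.30% of all windows. By gene they were in 31.6% of the 38 members and 9.55% of the 27025 genes. TGGGAA, the core that Ikaros recognises, was in 31.9% of member windows and 25.6% of all windows. By gene it was in 39.5% of the 38 members and 28.3% of the 27025 genes, a difference that was not tested. The paired repeat was in 18 of the 30 members with a window that fell by 120 min (60%) and in 5 of the 8 that were not called at that time (62.5%), a difference that was not tested. The stretch printed for Oas1c also holds the GENCODE M21 start of the member Oas1b, on the plus strand at 120812635. Capitals below mark the paired repeat or its reverse complement, each line reads 5′ to 3′ on the strand of the gene from 40 bases before the first match to 40 bases after the last, or in Oas1a and Irgm1 to the base before the start, and in Oas1c, Oas1a and Irgm1 the pair of matches overlap.
Ifit1 (chr19:34640745-34640853, plus strand): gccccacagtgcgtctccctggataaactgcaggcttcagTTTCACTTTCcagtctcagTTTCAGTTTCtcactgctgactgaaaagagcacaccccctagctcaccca
Oas1c (chr5:120812573-120812668, minus strand): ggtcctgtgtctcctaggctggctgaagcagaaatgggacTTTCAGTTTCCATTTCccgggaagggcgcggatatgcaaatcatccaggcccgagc
Ifit3 (chr19:34583333-34583456, plus strand): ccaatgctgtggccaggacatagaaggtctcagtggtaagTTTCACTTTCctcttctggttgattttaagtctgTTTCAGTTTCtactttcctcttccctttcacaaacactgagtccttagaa
Oas1a (chr5:120907526-120907585, minus strand): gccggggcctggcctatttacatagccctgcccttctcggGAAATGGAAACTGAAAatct
Irgm1 (chr11:48871421-48871490, minus strand): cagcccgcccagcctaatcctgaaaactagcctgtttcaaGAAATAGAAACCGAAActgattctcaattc

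Many members stand side by side in the genome (GRCm38, GENCODE M21). Chromosome 5 holds 12 of them, with 5 Gbp genes in a cluster, Oasl2 and Oasl1 side by side from 114896936 to 114937915, and the 5 other Oas genes between 120730333 and 120907521. Chromosome 11 holds 9 members, among them the IRG genes Irgm1, Ifi47, Igtp and Irgm2, chromosome 3 holds Gbp7, Gbp3, Gbp5 and Gbp2, and chromosome 19 holds Ifit2, Ifit3 and Ifit1 between 34550694 and 34650009. On chromosome 16 Parp14, Dtx3l and Parp9 are neighbours. Exons of 13 members overlap exons of another gene in the table, among them Igtp with Irgm2 (162 bases, same strand) and Dtx3l with Parp9 (458 bases, opposite strands). The library kit does not mark strand, and reads of near-identical Oas1, Gbp and Ifit paralogs may be shared, so levels of these genes are uncertain where the reads cannot be assigned.

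The libraries held 4503789 to 13333534 reads, as recovered from the steps of the deposited values. At these depths 1 read on a transcript of 1 kb is worth 0.222 RPKM in the shallowest library and 0.0750 RPKM in the deepest, and 4 of the 57 members had under 10 reads in at least 1 library. Ikzf1 itself ran from 206 to 263 RPKM in Ikaros-Zn4-/- cells and from 134 to 171 RPKM in WT cells, a measure of the whole gene that cannot show the missing zinc finger. All 11 markers of naive CD8 T cells on the list were detected, with summed levels of 3281 to 4423 RPKM at 0 and 30 min and of 2028 RPKM in Ikaros-Zn4-/- and 2105 RPKM in WT cells at 120 min. Cd44, the marker selected against in the sort, stayed between 0.731 and 1.75 RPKM, and none of the 7 erythroid and platelet markers is listed.

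Stimulation through CD3 and CD28 was followed by a broad loss of interferon-stimulated transcripts that deepened between 30 and 120 min. No unstimulated cells were sampled at 30 or 120 min. Effects of the antibodies and of the time since 0 min therefore cannot be told apart in any comparison of times. Compared with 0 min as the mean of both genotypes, 48 of the 57 members fell by 120 min and 0 rose, where 40.4% of all 12203 genes tested fell and 19.3% rose (59.7% called; limma on log2(RPKM + 1), Benjamini-Hochberg adjusted p below 0.05 over all genes). By 30 min 31 members had fallen and 0 had risen, where 12.5% of all genes fell and 6.51% rose (19.0% called), and with the libraries rescaled by median ratios 20 had fallen. From 30 to 120 min 41 members fell and 4 rose, where 31.3% of all genes fell and 16.9% rose (48.2% called). Ifitm3, in the table through the mutant at 0 and 30 min alone, is 1 of the 41, and 40 of the other 56 fell. The count of 4 was 0 without either 120 min library, 1 without WT 30 min replicate 1 and 2 without Ikaros-Zn4-/- 30 min replicate 1. The median member changed by -0.47 at 30 min and by -1.27 at 120 min on the log2 scale, beside -0.13 and -0.32 for the median of all genes tested. The median of all genes moved in both contrasts, so the change relative to it is also given for the leading members, while the tests were made on the deposited scale. A change on this scale understates the fold change of genes with low values. The 3 stimulation contrasts share libraries and are set side by side only. Of the 11 CD8 T cell markers 7 fell and 1 rose at 120 min, with Cd8a at -3.14, and their part in the result was not tested. In bulk RNA fewer cells of a type and less RNA per cell cannot be told apart.

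**Figure D1:**
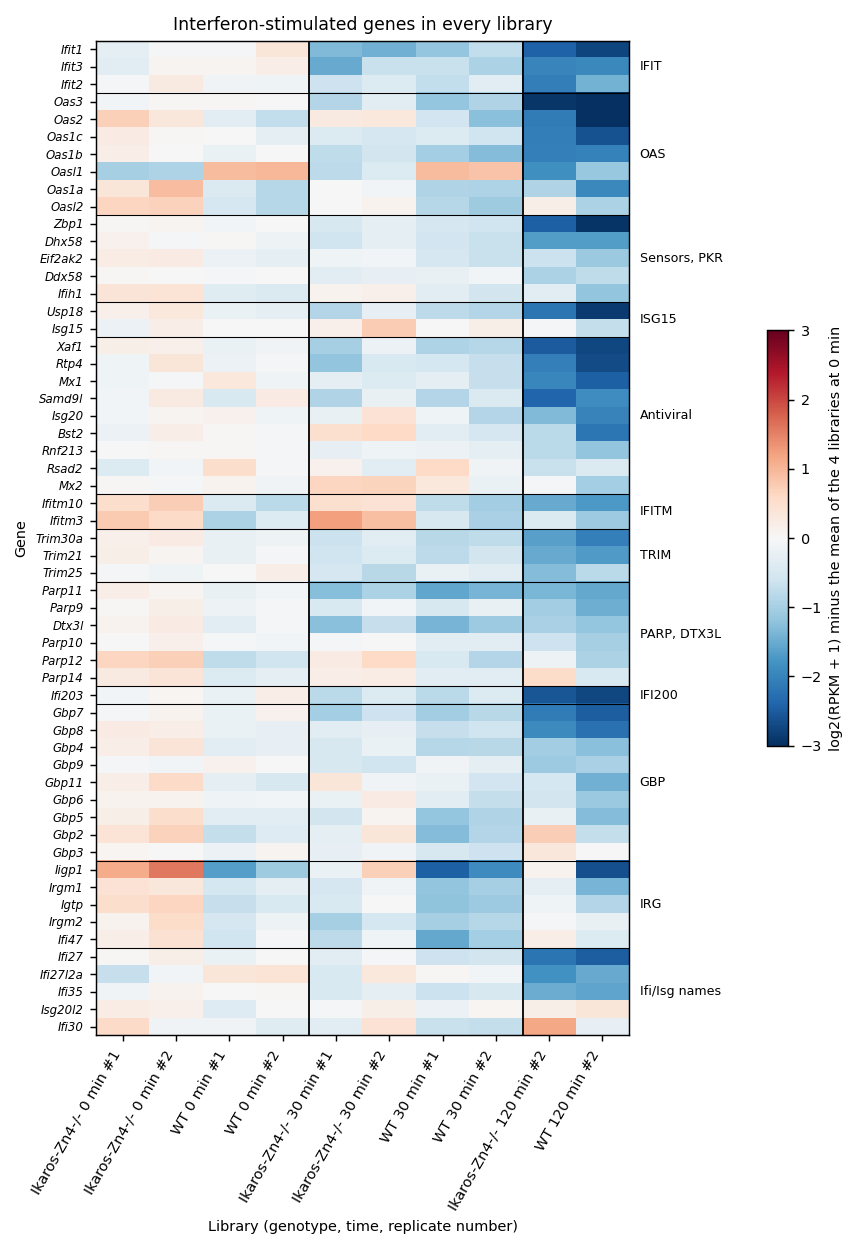
Each row is 1 of the 57 members and each column 1 of the 10 libraries, ordered by time with Ikaros-Zn4-/- left of WT. Colour gives log2(RPKM + 1) minus the mean of the 4 libraries at 0 min, blue for lower and red for higher, limited to ±3. Most rows turn blue by 120 min in both genotypes, the row of Gbp3 does not, and Oasl1 and Iigp1 differ between genotypes at every time.

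The number of calls at 30 min also depended on single libraries. Leaving out Ikaros-Zn4-/- 0 min replicate 1 gave 17 calls, its replicate 2 gave 14 and Ikaros-Zn4-/- 30 min replicate 1 gave 18. Leaving out WT 0 min replicate 1 gave 16, its replicate 2 gave 8, WT 30 min replicate 1 gave 10 and its replicate 2 gave 16. Called at 30 min whichever library was left out were 8 members, Dtx3l, Gbp4, Gbp7, Gbp8, Ifit1, Oas1b, Parp11 and Trim30a. At 120 min the count ran from 43 to 47 with 1 library left out, and 40 of the 48 members kept their call each time. Each genotype has a single library at 120 min, whose spread was taken to equal that of the groups with 2.

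The IFIT proteins bind viral RNA that lacks the host's cap methylation and block its translation. All 3 measured members fell at 30 min and again by 120 min, where 12.5% of all genes fell at 30 min and 40.4% by 120 min. In Ikaros-Zn4-/- cells Ifit1 was at 5.99 and 7.11 RPKM before stimulation, 2.39 and 2.15 RPKM after 30 min and 0.573 RPKM after 120 min. In WT cells it was at 7.36 and 10 RPKM before stimulation, 2.82 and 4.08 RPKM after 30 min and 0.251 RPKM after 120 min. The 4 libraries at 30 min lay below all 4 at 0 min, and the levels at 120 min, 14 reads in the Ikaros-Zn4-/- and 7 reads in the WT library, were the lowest. The log2 change of Ifit1 was -1.16 at 30 min (SE 0.15, adjusted p = 0.00498) and -2.60 at 120 min (SE 0.18, adjusted p = 5.95e-05), which is -1.03 and -2.28 relative to the median of all genes. Ifit3 changed by -0.95 at 30 min and -1.97 at 120 min, and Ifit2, the most abundant of the 3, by -0.52 and -1.75. Without WT 0 min replicate 2, 1 of the 3 was still called at 30 min, as without WT 0 min replicate 1, WT 30 min replicate 1 or Ikaros-Zn4-/- 0 min replicate 2.

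The OAS family includes the enzymes that make the second messenger that activates RNase L. All 7 measured members of the family fell by 120 min, 4 of them already at 30 min (Oas1b, Oas3, Oas1c and Oasl2). Of all genes 40.4% fell by 120 min and 12.5% at 30 min. Oas3 was at 19.0 and 20.8 RPKM before stimulation, 10.5 and 15.9 RPKM after 30 min and 1.81 RPKM after 120 min in Ikaros-Zn4-/- cells. It was at 20.6 and 20.4 RPKM before stimulation, 8.53 and 10.4 RPKM after 30 min and 1.18 RPKM after 120 min in WT cells. Its level at 120 min was thus 9.09% of the 0 min mean in Ikaros-Zn4-/- cells and 5.77% in WT cells. The log2 change of Oas3 was -0.81 at 30 min (SE 0.14, adjusted p = 0.0122) and -3.10 at 120 min (SE 0.17, adjusted p = 3.7e-05), or -0.68 and -2.78 relative to the median of all genes. Oas2, the most abundant of the family, was not called at 30 min (-0.31, adjusted p = 0.271) and fell by 2.80 at 120 min. Oas1c fell by 2.33 at 120 min and Oas1b by 2.04. Oas3 was not called at 30 min without WT 0 min replicate 2 or WT 30 min replicate 1 (adjusted p up to 0.0518), and the family had 1 or 2 calls at 30 min with any of the 8 libraries at 0 and 30 min left out. Oasl2 was close to the threshold at 120 min (-0.39, SE 0.14, adjusted p = 0.0497) and was not called there without 9 of the 10 libraries, taken out in turn (adjusted p up to 0.312). The exception was WT 0 min replicate 2.

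The sensors of foreign nucleic acids fell together by 120 min, where 40.4% of all genes fell. All 5 on the list, Zbp1, the RIG-I-like receptors Ddx58, Ifih1 and Dhx58, and the RNA-activated kinase PKR encoded by Eif2ak2, were called, with log2 changes between -2.70 and -0.74. Zbp1, which senses Z-form nucleic acids, was at 44.0 and 45.2 RPKM before stimulation, 30.6 and 34.7 RPKM after 30 min and 7.02 RPKM after 120 min in Ikaros-Zn4-/- cells. In WT cells it was at 40.6 and 42.3 RPKM before stimulation, 30.0 and 27.9 RPKM after 30 min and 4.72 RPKM after 120 min. The times did not overlap in either genotype. Zbp1 changed by -2.70 at 120 min (SE 0.10, adjusted p = 3.23e-05), -2.38 relative to the median of all genes, and by -0.47 at 30 min (adjusted p = 0.0124, and 0.0543 without WT 0 min replicate 2).

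In the ISG15 system Usp18 was called against 0 min at both times and Isg15 at neither. Usp18, the protease that takes the ubiquitin-like protein ISG15 off its targets and damps the type I receptor, fell by 0.70 at 30 min (adjusted p = 0.023) and by 2.53 at 120 min (SE 0.18, adjusted p = 6.38e-05). It was at 18.1 and 20.3 RPKM before stimulation, 8.28 and 13.5 RPKM after 30 min and 2.76 RPKM after 120 min in Ikaros-Zn4-/- cells. The WT values were 13.9 and 13.3 RPKM before stimulation, 9.01 and 8.35 RPKM after 30 min and 1.35 RPKM after 120 min. Isg15 itself was not called at either time, with changes of 0.28 after 30 min (adjusted p = 0.255) and -0.38 after 120 min (adjusted p = 0.129), and it ran from 15.8 to 31.4 RPKM in Ikaros-Zn4-/- and from 10.7 to 20.7 RPKM in WT libraries. From 30 to 120 min Isg15 fell by 0.66 (adjusted p = 0.0274), a call that was lost without WT 30 min replicate 2 or either 120 min library (adjusted p up to 0.181). The call of Usp18 at 30 min was lost without any 1 of the 4 WT libraries at 0 and 30 min or of the 2 Ikaros-Zn4-/- libraries at 0 min (adjusted p up to 0.0768).

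Of 9 other antiviral effectors 8 fell by 120 min, where 40.4% of all genes did. At 30 min 2 of the 9, Xaf1 and Rtp4, fell, where 12.5% of all genes did. Xaf1, a promoter of apoptosis, was at 9.24 and 9.09 RPKM before stimulation, 3.58 and 7.02 RPKM after 30 min and 0.626 RPKM after 120 min in Ikaros-Zn4-/- cells, and at 6.93 and 7.44 RPKM, 3.79 and 4.07 RPKM and 0.366 RPKM at these times in WT cells. It changed by -0.74 at 30 min and -2.61 at 120 min. The dynamin-like GTPase Mx1 changed by -2.21 at 120 min and Rtp4, a chaperone of membrane receptors, by -2.37. Rnf213, a giant ubiquitin ligase and the most abundant of these genes, fell less, by 0.99 at 120 min (SE 0.10, adjusted p = 0.00023), and was at 67.7 RPKM in the Ikaros-Zn4-/- and 51.3 RPKM in the WT library at that time. The exception was Rsad2, which encodes viperin and was low throughout, between 0.552 and 1.69 RPKM in Ikaros-Zn4-/- and between 0.814 and 2.71 RPKM in WT libraries. The calls of Xaf1 and Rtp4 at 30 min were lost without WT 0 min replicate 2 and without 5 further libraries each (adjusted p up to 0.108 and 0.122).

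Smaller groups fell as well, where 12.5% of all genes fell at 30 min and 40.4% by 120 min. All 3 TRIM ubiquitin ligases fell at both times, with changes of Trim30a of -0.64 at 30 min (adjusted p = 0.00915) and -1.85 at 120 min. Trim30a was at 34.6 and 37.1 RPKM before stimulation, 19.4 and 24.9 RPKM after 30 min and 9.34 RPKM after 120 min in Ikaros-Zn4-/- cells, and at 26.3 and 27.7, 16.9 and 17.8, and 6.70 RPKM in WT cells. Ifi203, a DNA-binding protein of the PYHIN family, fell by 0.61 at 30 min and 2.65 at 120 min. Ifi27 fell by 0.39 and 2.34. Ifi27l2a, the most abundant member with a mean of 131 RPKM, changed by -0.05 at 30 min (adjusted p = 0.876) and -1.66 at 120 min. It was at 42.2 RPKM in the Ikaros-Zn4-/- and 51.8 RPKM in the WT library at 120 min, below every library at 0 and 30 min (93.0 to 188 RPKM in Ikaros-Zn4-/- and 141 to 199 RPKM in WT cells). Ifitm10 fell by 1.61 at 120 min (SE 0.18, adjusted p = 0.000291) and was not called at 30 min. Ifitm3 is in the table through the mutant at 0 and 30 min alone, so its level at 120 min, 0.801 RPKM in the Ikaros-Zn4-/- and 0.140 RPKM in the WT library, is given without a test, and 47 of the other 56 members fell by 120 min. At 30 min Ifi203 was not called without any 1 of 6 libraries (adjusted p up to 0.115) and Ifi27 without any 1 of 7 (adjusted p up to 0.122), WT 0 min replicate 2 and both WT 30 min libraries among them.

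**Figure D2:**
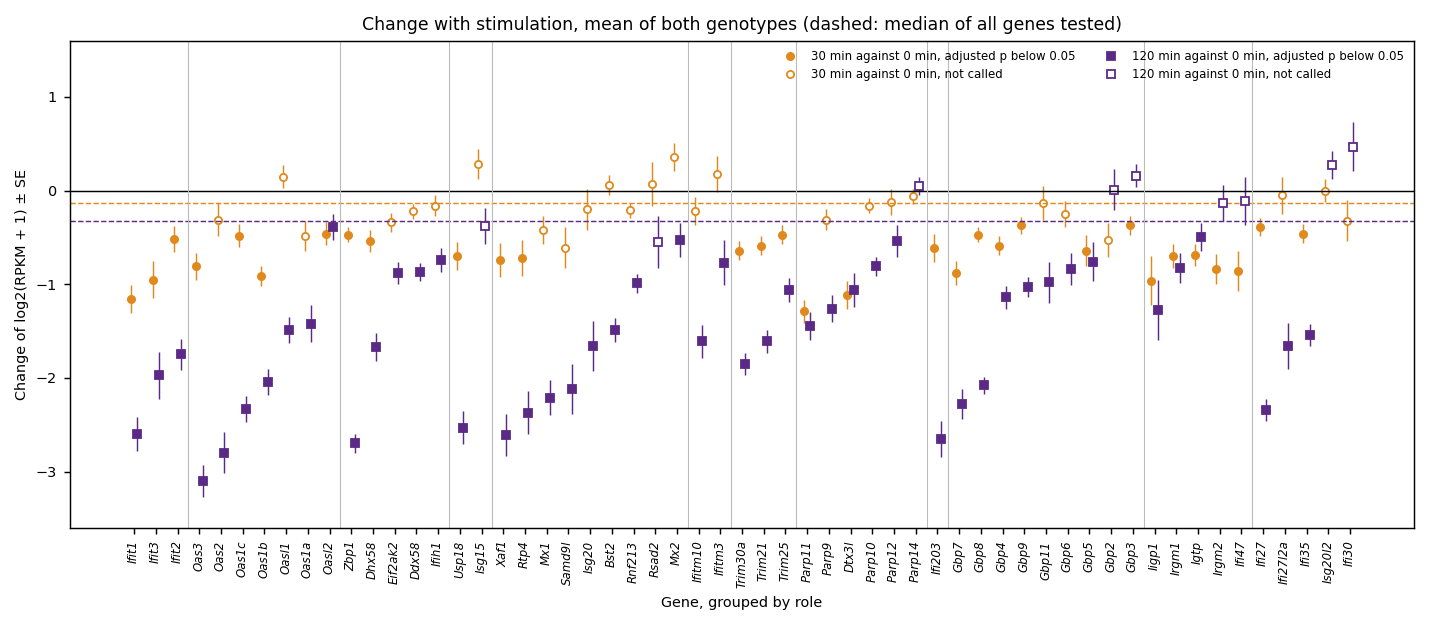
Change of log2(RPKM + 1) with its standard error for each member, as the mean of both genotypes, at 30 min (circles) and 120 min (squares) against 0 min, with filled symbols for adjusted p below 0.05. Dashed lines mark the medians of all genes, -0.13 and -0.32. The squares reach -3.10 for Oas3, and among the IRG genes and Parp11 and Dtx3l the circles lie close to the squares or below them.

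In 7 members, Dtx3l, Gbp5, Igtp, Iigp1, Irgm1, Oasl2 and Parp11, a fall was called at 30 and at 120 min with no call between those times, which does not show that the level stayed the same. Parp11, a mono-ADP-ribosyltransferase, was at 7.45 and 6.79 RPKM before stimulation, 2.03 and 2.79 RPKM after 30 min and 1.84 RPKM after 120 min in Ikaros-Zn4-/- cells. In WT cells it was at 5.31 and 5.96 RPKM before stimulation, 1.48 and 1.80 RPKM after 30 min and 1.53 RPKM after 120 min. Its change of -1.29 at 30 min (SE 0.12, adjusted p = 0.00212) was the largest of any member at that time, and the change from 30 to 120 min was -0.16 (adjusted p = 0.427). Dtx3l, a ubiquitin ligase that works with PARP9, changed by -1.11 at 30 min and by 0.05 from 30 to 120 min (adjusted p = 0.843). It was at 14.0 and 21 RPKM after 30 min and 17.3 RPKM after 120 min in Ikaros-Zn4-/- cells, and at 12.6 and 15.7 RPKM and 15 RPKM in WT cells, against 37.6 and 41.6 RPKM in Ikaros-Zn4-/- and 27.5 and 33.8 RPKM in WT cells at 0 min. Of the 6 PARP and DTX3L genes 2 fell at 30 min and 5 by 120 min, where 12.5% and 40.4% of all genes did. Parp10, the most abundant of those that fell, changed by -0.16 at 30 min and -0.81 at 120 min (adjusted p = 0.00039).

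The GBP and IRG GTPases attack the vacuoles of intracellular pathogens. Of the 9 GBP genes, 6 fell at 30 min and 7 by 120 min, where 12.5% and 40.4% of all genes did. Gbp7 fell by 0.88 at 30 min (SE 0.13, adjusted p = 0.00793) and by 2.28 at 120 min, where it was at 4.33 RPKM in the Ikaros-Zn4-/- and 3.09 RPKM in the WT library, against 21 and 23.4 RPKM in Ikaros-Zn4-/- and 18.8 and 23.7 RPKM in WT cells at 0 min. Gbp2, the most abundant GBP gene, was called in no stimulation contrast (-0.53 at 30 min, adjusted p = 0.0851, and 0.01 at 120 min, adjusted p = 0.986). Gbp5 fell by 0.76 at 120 min and lost that call without the WT 120 min library (adjusted p = 0.148) and under both rescalings of the libraries (adjusted p up to 0.209). With any 1 of 7 libraries at 0 and 30 min left out, all but Ikaros-Zn4-/- 30 min replicate 2, the GBP calls at 30 min numbered 3.

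All 5 immunity-related GTPases fell at 30 min, with log2 changes between -0.96 and -0.69, and only Iigp1, Irgm1 and Igtp were still called lower at 120 min. Of all genes 12.5% fell at 30 min and 40.4% by 120 min. Ifi47 was at 158 and 191 RPKM before stimulation, 79.7 and 127 RPKM after 30 min and 158 RPKM after 120 min in Ikaros-Zn4-/- cells. In WT cells it was at 90.1 and 133 RPKM, 47.3 and 67.3 RPKM and 103 RPKM at these times. Both genotypes thus had their lowest levels at 30 min, with no overlap within a genotype between 30 min and the other times. Ifi47 fell by 0.86 at 30 min (SE 0.21, adjusted p = 0.0326) and rose by 0.75 from 30 to 120 min (SE 0.26, adjusted p = 0.0462). Irgm2 did likewise, falling by 0.84 (SE 0.16, adjusted p = 0.0157) and rising by 0.71 (SE 0.19, adjusted p = 0.0213), and Gbp3 by 0.37 and 0.53, calls that were lost without any 1 of the 8 libraries at 0 and 30 min (adjusted p up to 0.155) and without either 120 min library (adjusted p up to 0.0615). Irgm2 was at 9.31 and 13.2 RPKM after 30 min and 19.0 RPKM after 120 min in Ikaros-Zn4-/- cells and at 9.34 and 10.3 RPKM and 16.5 RPKM in WT cells. The rise of Ifi47 was not called without WT 30 min replicate 1, either 120 min library, either Ikaros-Zn4-/- 0 min library or Ikaros-Zn4-/- 30 min replicate 1 (adjusted p up to 0.201), and that of Irgm2 not without WT 30 min replicate 1 or either 120 min library (adjusted p up to 0.106). Without WT 0 min replicate 2 or WT 30 min replicate 1 none of the 5 was called at 30 min, with adjusted p up to 0.143. At 120 min the call of Igtp (-0.50, adjusted p = 0.0243) was lost without WT 0 min replicate 2, Ikaros-Zn4-/- 0 min replicate 2 or the Ikaros-Zn4-/- 120 min library (adjusted p up to 0.313), and that of Iigp1 (-1.27, adjusted p = 0.0116) without either 120 min library (adjusted p up to 0.0564).

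**Figure D3:**
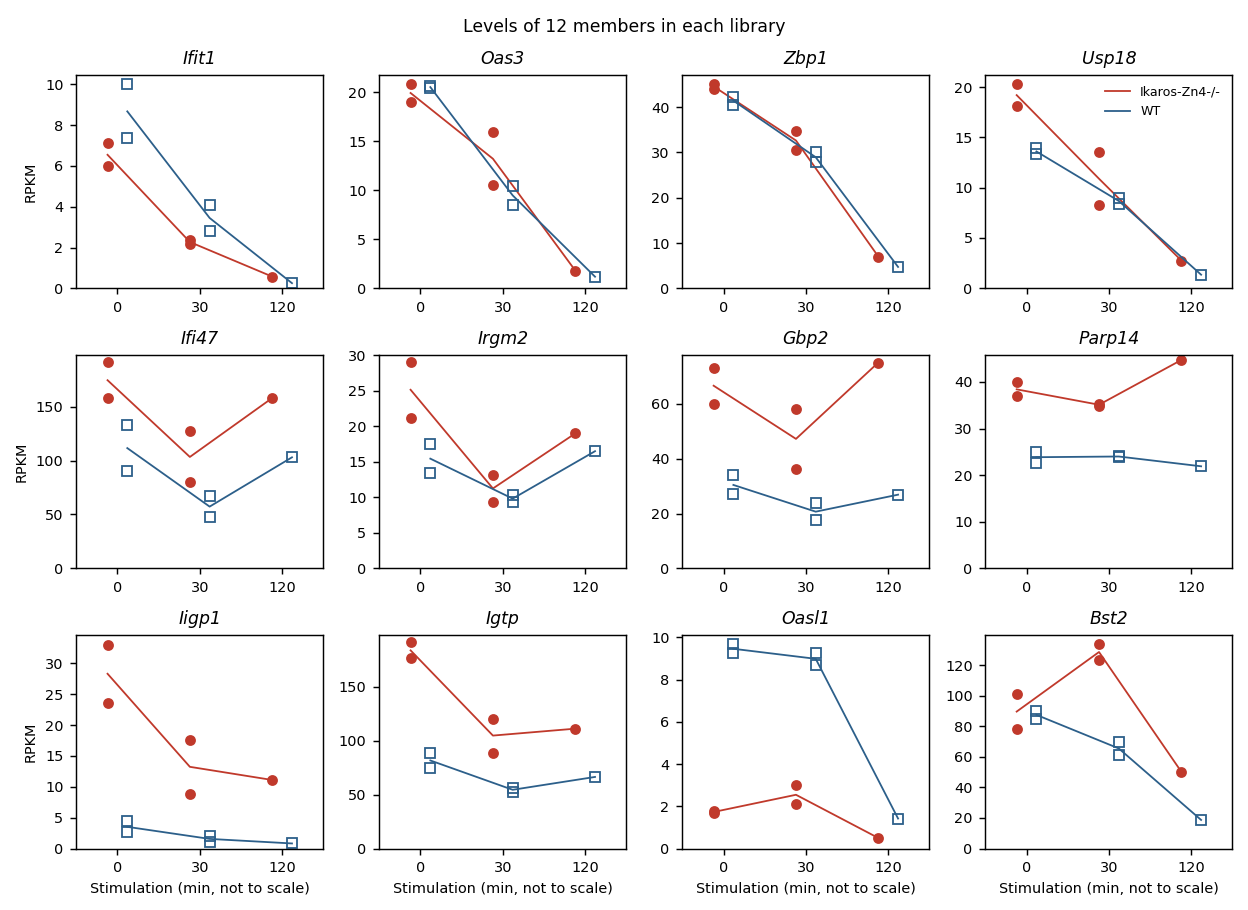
RPKM of 12 members in each library at 0, 30 and 120 min, with filled circles for Ikaros-Zn4-/- and open squares for WT libraries and lines through the group means; each panel has its own axis, which starts at 0. Ifit1, Oas3, Zbp1 and Usp18 drop through both times, Ifi47 and Irgm2 dip at 30 min, Iigp1 and Igtp are higher and Oasl1 is lower in Ikaros-Zn4-/- cells at each time, and Bst2 moves in opposite directions at 30 min.

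The members that were never lower in a stimulation contrast were few. Parp14, a mono-ADP-ribosyltransferase, stayed at 36.9 and 39.9 RPKM before stimulation, 34.9 and 35.3 RPKM after 30 min and 44.7 RPKM after 120 min in Ikaros-Zn4-/- cells and between 21.9 and 25.0 RPKM in all 5 WT libraries. Gbp2, Isg20l2 and Rsad2 were likewise not called in any of the 3 contrasts. Ifi30, a lysosomal thiol reductase of antigen processing, reached 15.6 RPKM in the Ikaros-Zn4-/- library at 120 min, against 5.25 RPKM in the WT library. It rose from 30 to 120 min by 0.79 (SE 0.26, adjusted p = 0.0442), a call lost without any 1 of 7 libraries, both 120 min and all 4 WT libraries at 0 and 30 min among them (adjusted p up to 0.408). Rescaling the libraries by median ratios, which brings the median of all genes at 120 min to 0.00, left 42 members called lower at 120 min and called 4 higher, Gbp3, Ifi30, Isg20l2 and Parp14. Quantile normalization gave 40 lower and 2 higher, Gbp3 and Ifi30. For 120 against 30 min the median ratios gave 37 lower and 8 higher.

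Ikaros-Zn4-/- cells held more of many of these transcripts than WT cells at the same time. Over all times, with 5 libraries against 5 and time as a term in the model, 20 of the 57 members were higher in the mutant and 1 was lower, where 6.19% of all genes were higher and 3.24% lower (9.42% called; limma, adjusted p below 0.05). Ifitm3, in the table through the mutant alone, is 1 of the 20, and 19 of the other 56 were higher. The median difference was 0.29 on the log2 scale over the members and 0.01 over all genes. In 24 members, Ifitm3 included, every Ikaros-Zn4-/- library lay above every WT library of its time, which 9.29% of all genes did, and in 3 members (Gbp9, Trim25 and Oasl1) every one lay below, which 6.43% of all genes did. With 1 library left out the number called ran from 17 to 22, and 17 of the 21 members kept their call each time. At single times the groups are 2 against 2. At 0 min 8 members were higher and 1 lower, where 1.92% and 0.557% of all genes were (2.47% called), and at 30 min 7 were higher, Ifitm3 among them, and 1 lower, where 2.01% and 0.606% were (2.61% called). These counts depended on each library at 0 and 30 min and ran from 1 to 9 at 0 min and from 0 to 8 at 30 min with 1 library left out. Leaving out Ikaros-Zn4-/- 0 min replicate 1 or WT 0 min replicate 1 gave 2 at 0 min, leaving out replicate 2 of either gave 1, and the count was 5 without either Ikaros-Zn4-/- and 4 without either WT 30 min library. The count at 30 min was 3 and 1 without Ikaros-Zn4-/- 30 min replicates 1 and 2, 0 without either WT 30 min library and 5 without any 1 of the libraries at 0 min.

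**Figure D4:**
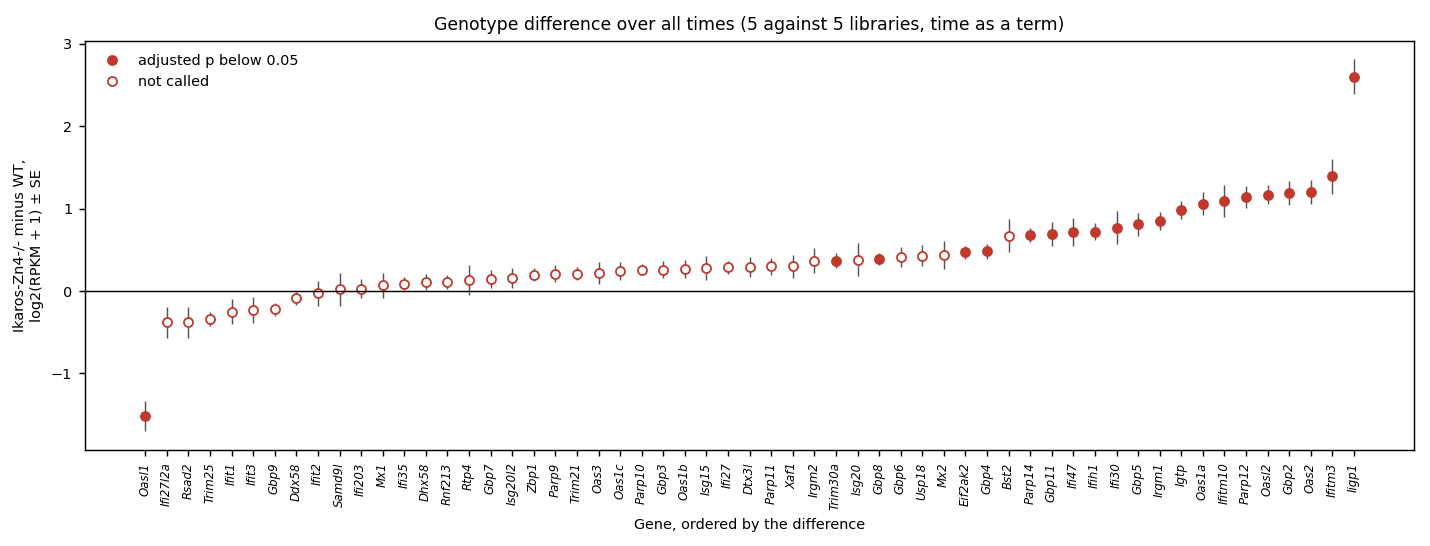
Ikaros-Zn4-/- minus WT on log2(RPKM + 1) with its standard error for each member, over all times (5 libraries against 5), ordered by size, with filled points for adjusted p below 0.05. The differences run from -1.52 for Oasl1 to 2.60 for Iigp1, and 20 of the filled points lie above 0.

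Of all members Iigp1 differed most between genotypes. Iigp1, an effector GTPase that is loaded onto the vacuoles of intracellular parasites in mice (chromosome 18, 60376027 to 60392634), was at 23.6 and 33.0 RPKM in Ikaros-Zn4-/- and 2.60 and 4.43 RPKM in WT cells at 0 min. At 30 min it was at 8.86 and 17.6 RPKM in Ikaros-Zn4-/- and 1.08 and 2.04 RPKM in WT cells, and at 120 min at 11.1 RPKM and 0.824 RPKM. The genotypes did not overlap at any time, and the ratio of means was 8.06 before stimulation, 8.48 after 30 min and 13.5 after 120 min. The difference over all times was 2.60 (SE 0.21, adjusted p = 6.21e-05). Irgm1 and Igtp, regulators that keep such effectors off host membranes, were higher by 0.85 (SE 0.11, adjusted p = 0.00136) and 0.98 (SE 0.11, adjusted p = 0.000666). Igtp was at 176 and 191 RPKM in Ikaros-Zn4-/- and 74.9 and 88.2 RPKM in WT cells at 0 min, at 88.8 and 120.4 RPKM and 52.4 and 56.4 RPKM at 30 min, and at 111 RPKM and 66.3 RPKM at 120 min. Ifi47 was higher by 0.72 (adjusted p = 0.028, and up to 0.0776 with 1 of 6 libraries left out, among them either 120 min library), and Irgm2 differed by 0.37 (adjusted p = 0.174). Igtp and Irgm2 share exon bases, and whether their differences are unequal was not tested.

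Of the 9 GBP genes 5 were higher in the mutant and 0 lower, where 6.19% of all genes were higher and 3.24% lower. Gbp2 was at 60.1 and 73.2 RPKM in Ikaros-Zn4-/- and 27.0 and 33.9 RPKM in WT cells at 0 min, at 36.4 and 58.1 RPKM and 17.6 and 23.8 RPKM at 30 min, and at 75.1 RPKM and 26.9 RPKM at 120 min. The genotypes did not overlap at any time, and the difference was 1.19 (SE 0.15, adjusted p = 0.00115). Gbp5, an activator of inflammasomes, was higher by 0.81 (SE 0.14, adjusted p = 0.00721). Gbp4 and Gbp8 were higher by 0.48 and 0.39, and Gbp11, with 6 reads in the WT 120 min library, by 0.69 (adjusted p = 0.0206, and up to 0.0659 without any 1 of 6 libraries, both 120 min libraries among them). Gbp7, which stands next to Gbp3 on chromosome 3, differed by 0.15 (adjusted p = 0.494) and Gbp9, between Gbp8 and Gbp4 on chromosome 5, by -0.22, neither called.

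Within the OAS family the genotypes differed in both directions. Oas2 was at 35.2 and 27.2 RPKM in Ikaros-Zn4-/- and 16.7 and 12.3 RPKM in WT cells at 0 min, and higher in the mutant by 1.20 over all times (SE 0.15, adjusted p = 0.00108). Oasl2 was higher by 1.17 (SE 0.11, adjusted p = 0.000145) and Oas1a by 1.06 (SE 0.14, adjusted p = 0.00151). Oas3, which lies between Oas2 and Oas1c, differed by 0.22 (adjusted p = 0.367), Oas1b by 0.27 and Oas1c by 0.24, none called. Oasl1, known in mice to hold back the translation of Irf7 (chromosome 5, 114923240 to 114937915), was the single member that was lower. It was at 1.67 and 1.79 RPKM in Ikaros-Zn4-/- and 9.25 and 9.66 RPKM in WT cells at 0 min. At 30 min it was at 2.10 and 2.99 RPKM in Ikaros-Zn4-/- and 9.26 and 8.70 RPKM in WT cells, and at 120 min at 0.50 RPKM and 1.42 RPKM. The genotypes were apart at each time, and the difference was -1.52 over all times (SE 0.18, adjusted p = 0.000711), -1.94 at 0 min (adjusted p = 0.00199) and -1.50 at 30 min (adjusted p = 0.00599). Oasl1 is the next gene to Oasl2 among the members on chromosome 5, and the 2 moved in opposite directions. It was the only member whose call at 0 min was kept with each library left out in turn and under each other setting tried.

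Ifitm10, Parp12, Parp14 and 2 of the sensors were higher in the mutant. Ifitm3, which blocks the fusion of viruses in endosomes, was at 3.21 and 2.62 RPKM in Ikaros-Zn4-/- and 0.275 and 0.830 RPKM in WT cells at 0 min. The WT values rest on 2 and 5 reads, and since the mutant alone put the gene in the table, its values are a description without a test. Ifitm10 was at 4.73 and 5.66 RPKM in Ikaros-Zn4-/- and 1.94 and 1.27 RPKM in WT cells at 0 min and higher by 1.09 (SE 0.19, adjusted p = 0.00614). Parp12, a mono-ADP-ribosyltransferase, was at 8.15 and 8.61 RPKM in Ikaros-Zn4-/- and 2.47 and 2.90 RPKM in WT cells at 0 min and higher by 1.14 (SE 0.13, adjusted p = 0.000623). Ifih1 was higher by 0.72 and Eif2ak2 by 0.47, while Zbp1 differed by 0.20 (adjusted p = 0.183) and Ddx58 by -0.09 (adjusted p = 0.559), neither called. Ifi30 was higher by 0.77 (adjusted p = 0.0454, and up to 0.135 without any 1 of 8 libraries, all 5 WT libraries among them) and Trim30a by 0.37 (adjusted p = 0.0259, and up to 0.0738 with 1 of 7 libraries left out, among them both WT 0 min and both 120 min libraries). None of the 3 IFIT genes was called between genotypes, with Ifit1 at -0.25 (SE 0.15, adjusted p = 0.385), and neither Isg15 nor Usp18 was called.

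Of the members that fell by 120 min 16 were higher in the mutant, Ifitm3 included, 1 was lower and 31 were not called between genotypes. Of the 9 not called at 120 min, 4 were higher in the mutant (Gbp2, Ifi30, Ifi47 and Parp14). The 14 members higher in the mutant, Ifitm3 included, that had a promoter window held the paired GAAA repeat in 9 cases (64.3%), beside 60.5% of all 38.

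Some markers of other cells and states differed between the genotypes, in both directions, and their part in the result was not tested. On the memory CD8 list 4 of 6 genes were higher in the mutant, where 6.19% of all genes were. The summed level of the list was 232 to 316 RPKM in Ikaros-Zn4-/- and 109 to 188 RPKM in WT libraries, most of it Il2rb. Cd44 was at 0.731 and 1.05 RPKM in Ikaros-Zn4-/- and 0.893 and 1.61 RPKM in WT cells at 0 min. At 120 min Cd44 was at 1.11 RPKM and 1.67 RPKM. Ccl5 was at 1.87 and 2.08 RPKM in Ikaros-Zn4-/- and 1.07 and 1.64 RPKM in WT cells at 0 min. Cxcr3, a chemokine receptor of activated and memory T cells, was at 46.4 and 53.7 RPKM in Ikaros-Zn4-/- and 4.30 and 3.18 RPKM in WT cells at 0 min, and Eomes at 23.0 and 28.6 RPKM and 9.39 and 6.82 RPKM. On the natural killer list 3 of 7 genes are listed, with sums of 13.6 to 35.5 RPKM in Ikaros-Zn4-/- and 2.65 to 11 RPKM in WT libraries. Eomes, which is also on the memory list, made up most of each of these sums. Klrk1 was at 1.39 and 1.29 RPKM in Ikaros-Zn4-/- and 1.40 and 1.72 RPKM in WT cells at 0 min. Gzma was at 5.30 and 5.56 RPKM and 0.212 and 0 RPKM in the same libraries, and is in the table through the mutant alone. Ncr1, Klrb1c, Klre1 and Klra8 were not among the genes tested. On the B cell list 3 of 7 genes are listed, with sums of 29.8 to 49.4 RPKM in Ikaros-Zn4-/- and 9.61 to 16.1 RPKM in WT libraries. Cd74 made up most of the mutant sums and was higher in the mutant by 3.36 (SE 0.13, adjusted p = 9.62e-07). Cd79b, a signalling chain of the B cell receptor, went the other way, at 9.75 and 6.36 RPKM in Ikaros-Zn4-/- and 14.1 and 14.8 RPKM in WT cells at 0 min, and was lower in the mutant over all times (-0.83, SE 0.12, adjusted p = 0.00239). Cd79a was at 0.152 to 0.309 RPKM at 0 min in both genotypes, and Ms4a1, Pax5 and Ebf1 were among those not tested. The myeloid list had 4 of 7 genes, with sums of 31.6 to 94.5 RPKM in Ikaros-Zn4-/- and 28.8 to 52.6 RPKM in WT libraries, and without Csf1r, Fcer1g and Tyrobp. At 0 min these sums were 33.4 and 31.6 RPKM in Ikaros-Zn4-/- and 30.7 and 31.1 RPKM in WT cells. At 30 min Cd68 made up most of each sum, at 60.4 and 39.7 RPKM in Ikaros-Zn4-/- and 35.4 and 32.0 RPKM in WT cells. The plasmacytoid dendritic cell list held Ccr9 and the member Bst2 alone, with sums of 55.5 to 173 RPKM and 29.4 to 163 RPKM. Ccr9 was lower in the mutant at each time, at 59.3 and 54.4 RPKM against 63.2 and 78.1 RPKM at 0 min. It was at 31.5 and 38.7 RPKM against 46.3 and 55.8 RPKM at 30 min and at 5.25 against 10.7 RPKM at 120 min. Of the CD4 and regulatory T cell list Ctla4 alone was tested, with sums of 4.56 to 34.9 RPKM in Ikaros-Zn4-/- and 3.0 to 33.9 RPKM in WT libraries.

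Whether the members responded differently to stimulation in the mutant was tested as an interaction. At 30 min 0 of 57 members and 0 of all 12203 genes were called (0% of genes), with 1 member and 656 genes at an unadjusted p below 0.05. At 120 min 0 members and 0 genes were called (0%), with 5 members and 661 genes at an unadjusted p below 0.05, and limma-voom on recovered reads also called 0 members at either time. With 1 or 2 libraries per group this does not show that the responses were alike. Bst2, which encodes tetherin, the protein that holds virions on the cell surface, was the member with an unadjusted p below 0.05 at 30 min. It stood at 123 and 134 RPKM after 30 min, against 78.1 and 101 RPKM before, in Ikaros-Zn4-/- cells. The WT values were 69.5 and 61.4 RPKM after 30 min, against 90.0 and 84.8 RPKM before. Both 30 min libraries were thus above both 0 min libraries in the mutant and below them in WT cells. At 30 min 1 member moved in opposite ways like this, as 2.92% of all genes did, and at 120 min 2 members, Gbp2 and Parp14, as 5.08% of all genes did. By 120 min Bst2 was at 50.2 RPKM in the Ikaros-Zn4-/- and 18.7 RPKM in the WT library.

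The interferon pathway itself was measured through lists of its other genes. Of 35 tested interferon targets outside the members, 29 fell by 120 min and 1 rose, where 40.4% of all genes fell and 19.3% rose. By 30 min 15 fell and 1 rose, where 12.5% and 6.51% of all genes did. The count of falls at 30 min was 4 to 16 with 1 library left out. It was 6 when Ikaros-Zn4-/- 0 min replicate 2 was left out, 7 for Ikaros-Zn4-/- 30 min replicate 1, 9 and 5 for WT 0 min replicates 1 and 2, and 4 and 8 for WT 30 min replicates 1 and 2. Slfn5, of the Schlafen family that restrains T cell growth, fell by 3.34 at 120 min and Phf11b fell by 3.11. Ly6a, the surface antigen Sca-1, fell by 2.66, and the gene that rose was Cxcl10, a chemokine, by 1.41. In the mutant 7 of the 35 were higher and 1 lower, where 6.19% and 3.24% of all genes were, a count that was 4 higher without WT 0 min replicate 2, either WT 30 min library or Ikaros-Zn4-/- 0 min replicate 2. Ly6a was at 17.2 and 21 RPKM in Ikaros-Zn4-/- and 3.94 and 3.73 RPKM in WT cells at 0 min and higher by 1.92 over all times (SE 0.15, adjusted p = 5.56e-05). Psmb8, an immunoproteasome subunit, was higher by 0.77, Ly6e by 0.71 and Tor3a by 0.78.

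Receptors, kinases and factors did not move in 1 direction. Ifngr1, the ligand-binding chain of the interferon gamma receptor, rose by 0.88 at 30 min and by 1.98 at 120 min (SE 0.19, adjusted p = 0.000162) and was lower in the mutant by 1.07 over all times (SE 0.17, adjusted p = 0.00374). It was at 24.3 and 26.8 RPKM in Ikaros-Zn4-/- and 52.2 and 53.7 RPKM in WT cells at 0 min. Its partner Ifngr2 rose by 0.87 at 30 min and was lower in the mutant by 0.58 (adjusted p = 0.0278, and up to 0.0841 with 1 of 8 libraries left out). The rise of Ifngr1 at 30 min was not called without WT 0 min replicate 2 or WT 30 min replicate 1 (adjusted p up to 0.0515). Jak2 rose by 0.87 at 120 min, Tyk2 fell by 1.98, and Ifnar1 fell by 0.57, which was not called after median-ratio scaling (adjusted p = 0.251). Irf1 rose by 0.76 at 30 min (adjusted p = 0.0168, and up to 0.0695 without WT 0 min replicate 2, either WT 30 min library or Ikaros-Zn4-/- 30 min replicate 1). Irf7 fell by 1.20 and Irf3 by 0.94 at 120 min, and Stat2 rose by 0.53, which was not called without the Ikaros-Zn4-/- 120 min library (adjusted p = 0.176). Irf7 was lower in the mutant by 0.44, a call lost with 1 of 7 libraries left out (adjusted p up to 0.0962). Irf8 was at 0.872 and 1.76 RPKM in Ikaros-Zn4-/- and 0.581 and 0.303 RPKM in WT cells at 0 min. It was under 1 RPKM in every WT library. The mutant alone put Irf8 in the table, so its values are a description without a test. Socs3, an inhibitor of JAK kinases, was at 99.2 and 117 RPKM in Ikaros-Zn4-/- and 54.3 and 40 RPKM in WT cells at 0 min and higher by 1.21 over all times (SE 0.11, adjusted p = 0.000168). Socs1 rose by 0.79 at 30 min, lost without WT 0 min replicate 1 or 2, WT 30 min replicate 1 or Ikaros-Zn4-/- 30 min replicate 1 (adjusted p up to 0.062).

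Of 7 negative regulators 4 rose by 120 min, among them the SUMO ligase Pias1 by 1.16, and 1 fell, the phosphatase Ptpn6, by 1.61, where 19.3% of all genes rose and 40.4% fell. Of 10 tested genes of the upstream sensing pathways 7 fell and 2 rose by 120 min, where 40.4% and 19.3% of all genes did. By 30 min 5 fell, where 12.5% of all genes did, a count that was 1 without WT 0 min replicate 1 or 2, WT 30 min replicate 1 or Ikaros-Zn4-/- 0 min replicate 1, 2 without WT 30 min replicate 2 or Ikaros-Zn4-/- 0 min replicate 2, and 3 without Ikaros-Zn4-/- 30 min replicate 1. Mavs, the adaptor of the RIG-I-like receptors, fell by 2.35 at 120 min and Samhd1, which depletes the nucleotides that viruses need, by 1.52. Samhd1 was lower in the mutant by 0.51 (SE 0.08, adjusted p = 0.00435). Of the interferon genes on the list Ifng alone was tested. It was at 9.95 and 14.8 RPKM in Ikaros-Zn4-/- and 3.64 and 0.996 RPKM in WT cells at 30 min, a difference of 2.11 (SE 0.46, adjusted p = 0.0713) that was not called, and at 4.29 and 2.21 RPKM and 2.31 and 1.12 RPKM at 0 min.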

How the data were processed

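The authors deposited 1 table of RPKM values with a column per library. The library kit, TruSeq RNA v2 with single-end reads, does not mark strand, per the labels' protocols. TopHat2 2.0.12, TopHat and HTSeq 0.6.1 are listed in the submitters' processing notes, with the builds mm10 and GRCm38. What each was used for, the annotation and lengths behind the values and any filter applied before deposit were not given in the sources used here.

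Values were tested as log2(RPKM + 1) with limma 3.58.1 (trend, two-sided, R 4.3.3) on the 12203 genes that averaged 0.5 RPKM or more over the libraries, all 57 members included. Stimulation contrasts, genotype contrasts at single times and interactions came from a fit with 1 mean per group over all 10 libraries (4 residual degrees of freedom), and the genotype difference over all times from an additive model with time as a term (6 residual degrees). P-values were adjusted by Benjamini-Hochberg over all genes tested, at 0.05. The fits were tested on simulated data. Depth was recovered from the steps of the RPKM values with GENCODE M21 exon lengths: 65.7% to 71.2% of low values came out within 0.01 of a whole read, where 2% would by chance, so reads are approximate and were used for an alternative only. The read counts given cover counting error only.

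The members, gene lists, marker lists and tests were chosen with earlier results of these data known. Members were named for the 12 largest changes among those called in each of the comparisons of 120 with 0 min, 30 with 0 min and genotype over all times, for a direction opposite to most called members, or for the highest mean in their role group. Other members and the genes of the lists beyond these were chosen after their values were seen. Alternatives were the pseudocount, the filter, 2 rescalings, the groups behind the spread, a replicate block, leaving out each library and, added after seeing the data, limma-voom on recovered reads.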

Additional observations from a re-analysis of the deposited data

Results flagged for a closer look

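Bst2 at 30 min, and Gbp2 and Parp14 at 120 min, moved in opposite directions in the genotypes, without overlap with 0 min in either. Each did so at that time only. Of all genes 2.92% did so at 30 min and 5.08% at 120 min, and the share of the members was lower at both times. By 120 min Bst2 was below its 0 min levels in both genotypes, as was Gbp2 at 30 min. Bst2 was higher at 30 min than at 0 min in Ikaros-Zn4-/- cells and lower in WT cells, and its response differed by 0.94 on the log2 scale (SE 0.22, unadjusted p = 0.00357, limma adjusted p = 0.876). Gbp2 was at 75.1 RPKM at 120 min in Ikaros-Zn4-/- cells, above both libraries at 0 min, and at 26.9 RPKM in WT cells, below both, a difference in response of 0.34 (SE 0.45, limma adjusted p = 0.990). Parp14 was at 44.7 RPKM and 21.9 RPKM in the same libraries, a difference in response of 0.33 (SE 0.19, limma adjusted p = 0.984). None of the 3 passed the adjustment, and at 120 min each genotype has a single library.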

How the results depend on the processing

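The counts of members lower at 120 min than at 0 min (40 to 48), lower or higher at 120 than at 30 min (39 to 47) and called between genotypes over all times (19 to 24) stayed within 1.5 times the reported count under each other pseudocount, filter, rescaling, spread, replicate block and limma-voom on recovered reads, and the interactions gave 0 under each. The 31 members lower at 30 min became 20 with median-ratio scaling. At single times the genotype counts of 9 at 0 min and 8 at 30 min became 1 and 0 when only the compared groups gave the spread, and 8 at 30 min became 13 with limma-voom on recovered reads. With the replicate number as a block the counts were 15 at 0 min and 13 at 30 min, 35 at 30 against 0 min and 24 over all times. The block raised the genes called from 2317 to 3484 at 30 against 0 min and from 1150 to 1567 over all times. Deviations of same-numbered libraries correlated between groups at 0.04 to 0.23, so the numbers were not taken to pair the samples. Both 120 min libraries carry the number 2 in their descriptions, so comparisons with 120 min are not balanced for it. The change of Oasl2 at 120 min reversed to 0.01 with quantile normalization (adjusted p = 0.944). With each library left out in turn the counts ran from 8 to 31 at 30 against 0 min, from 43 to 47 at 120 against 0 min, from 32 to 46 at 120 against 30 min, from 17 to 22 between genotypes over all times, from 1 to 9 at 0 min and from 0 to 8 at 30 min. The cause of these changes was not tested. Over the named genes 2365 values under an alternative kept their direction and side of the threshold, 284 lost the call and 1 reversed. The interaction at 120 min without either 120 min library, and the genotype model with compared groups only, could not be fitted. Depth limits members near 1 RPKM, such as Ifitm3 with 1 read in a WT library.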
